A study of Mus musculus with 12 samples.

Results

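The genes described here encode 7 products that mark or are secreted by club cells and the neighbouring secretory cells of the airway lining: Scgb1a1, Scgb3a1, Scgb3a2, Bpifa1, Bpifb1, Reg3g and Lypd2. They were chosen by symbol, and all 7 were found among the 78298 genes of the deposited count table. All 7 were also among the 22190 genes with enough counts to be tested, and no annotated gene overlapped any of them. RNA sequencing covered 12 mouse lung libraries, 3 in each of 4 groups. Tumour libraries came from dissected LLC tumours, and normal libraries from lung next to tumours, so the normal lung also came from tumour-bearing animals. Both kinds of tissue were taken under HDM, which the series title spells out as house dust mite, or under VEH. LLC and VEH are used here as the labels give them, and the labels state no strain, genotype, age, dose or duration. The labels do not say that libraries of a group came from separate animals, so p-values measure only the spread between these libraries, which may be technical.

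Club cells are the dome-shaped secretory cells of the bronchioles, and they can renew themselves and give rise to ciliated cells. Their main product is the small anti-inflammatory protein Scgb1a1, a secretoglobin. Goblet and mucous cells of larger airways and glands add mucins and antimicrobial proteins, among them members of the BPI fold family, which resembles a bactericidal protein of neutrophils. Reg3g is a secreted lectin that acts against Gram-positive bacteria and is induced in epithelia by infection and by the cytokines IL-17 and IL-22.

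The libraries held 20608682 to 32765364 counts. Levels are given in CPM, which puts every library on the same total with its size weighted by the trimmed mean of M values (TMM). Levels of different genes are compared in CPM per kilobase of the deposited gene length, except where ranks or shares of counts are named. Library names carry prefixes, and 2 of the 6 prefixes joined a normal and a tumour library with different treatment labels, which touches 4 libraries. The labels do not say what a prefix stands for. If it marked the animal, normal and tumour libraries would be paired and the treatment label of those 4 libraries would be in doubt. Summed levels of type 2 response genes, and of genes linked to IL-17 and IL-22, did not follow the labels in normal lung. They were high in normal VEH library 2 (7979 and 3741 CPM) and low in normal HDM library 3 (398 and 394 CPM). Both libraries are among those 4, and the cause was not tested. Of the genes with 1 to 20 counts in a library, 68.2% to 72.03% had an even count, and if this came from counting both mates of a read pair, 2 counts would be 1 fragment. A set of 3 libraries stood apart for these genes. Normal HDM library 2 and tumour VEH library 2 had the highest levels of Scgb3a1, Bpifa1, Bpifb1 and Reg3g. Tumour HDM library 3 held the lowest level of all 7 genes, and Sftpc, the surfactant protein C gene of alveolar type 2 cells, was also at only 3.12 CPM there against 982 to 4680 CPM in the other tumour libraries. Results that rest on these libraries are given with and without them.

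In the normal libraries Scgb1a1, Scgb3a2 and Lypd2 were high and low together, most closely Scgb3a2 and Lypd2, and the club cell gene Cyp2f2 and the ciliated cell gene Foxj1 ran with them. Scgb3a1, Bpifa1, Bpifb1 and Reg3g shared their highest normal library, normal HDM library 2, and their lowest, normal HDM library 3. Muc5b and Ltf, a gel-forming mucin and an iron-binding antimicrobial protein of glands and mucous cells, had the same highest and lowest normal libraries. Over the other 4 normal libraries these 4 genes did not vary as 1 group, and Bpifa1 then ran with Cyp2f2.

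Promoter sequences are shown for 4 genes, which shared their highest and lowest libraries within each tissue, so that their upstream letters can be set side by side. RefSeq promoters of build GRCm38.p6 were matched by symbol for 4 of the 7 genes, Scgb3a1, Bpifa1, Bpifb1 and Reg3g, with Bpifb1 listed at 2 starts. Each line gives the 250 bases before the start, 5′ to 3′ on the gene's own strand. Capitals mark matches, on either strand, to TNTTTAC or TGTTTGC, letters that forkhead factors are known to bind, and to TATAAA, the TATA box letters. These motifs were chosen after the sequences had been read.
Bpifa1, chr2:154142630-154142879, plus strand: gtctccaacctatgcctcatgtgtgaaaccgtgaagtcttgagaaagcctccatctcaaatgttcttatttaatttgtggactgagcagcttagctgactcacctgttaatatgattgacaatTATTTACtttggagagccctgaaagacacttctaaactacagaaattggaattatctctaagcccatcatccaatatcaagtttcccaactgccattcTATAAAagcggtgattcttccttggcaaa
Bpifb1, first start, chr2:154190568-154190817, plus strand: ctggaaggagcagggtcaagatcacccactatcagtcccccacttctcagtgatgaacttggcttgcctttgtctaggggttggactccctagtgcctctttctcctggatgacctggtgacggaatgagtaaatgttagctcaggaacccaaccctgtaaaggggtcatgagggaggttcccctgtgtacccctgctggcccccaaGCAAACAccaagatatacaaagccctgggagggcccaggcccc
Bpifb1, second start, chr2:154200130-154200379, plus strand: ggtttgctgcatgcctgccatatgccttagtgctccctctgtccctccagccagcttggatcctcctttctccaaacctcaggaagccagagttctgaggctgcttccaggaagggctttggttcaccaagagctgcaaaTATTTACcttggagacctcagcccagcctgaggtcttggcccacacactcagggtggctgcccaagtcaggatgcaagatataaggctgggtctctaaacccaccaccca
Reg3g, chr6:78468875-78469124, minus strand: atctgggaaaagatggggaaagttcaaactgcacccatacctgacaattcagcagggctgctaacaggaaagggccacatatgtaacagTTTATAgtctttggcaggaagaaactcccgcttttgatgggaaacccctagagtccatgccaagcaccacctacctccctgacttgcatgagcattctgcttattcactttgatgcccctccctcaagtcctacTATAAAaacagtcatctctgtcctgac
Scgb3a1, chr11:49663345-49663594, plus strand: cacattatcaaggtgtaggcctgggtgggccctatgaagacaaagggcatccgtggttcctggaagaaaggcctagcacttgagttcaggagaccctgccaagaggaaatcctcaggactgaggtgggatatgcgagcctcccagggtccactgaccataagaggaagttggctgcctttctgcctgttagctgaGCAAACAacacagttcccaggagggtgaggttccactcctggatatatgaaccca
Counted backwards from the start, Bpifa1 held TATTTAC at bases 127 to 121 and TATAAA at 29 to 24. The Bpifb1 starts held GCAAACA, which is TGTTTGC on the other strand, at 43 to 37 and TATTTAC at 110 to 104. Scgb3a1 held GCAAACA at 55 to 49. Reg3g held TATAAA at 27 to 22, a second match on the other strand at 161 to 156, and neither forkhead motif. Of 32536 RefSeq promoters of the same length, 14.6% held TNTTTAC or TGTTTGC and 12.3% held TATAAA. No motif overlapped another in these sequences, and a match is a description of letters only.

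Scgb1a1 (ENSMUSG00000024653) lies on chr19:9061000-9065326 of build GRCm39, minus strand, and encodes the main secreted protein of club cells. In the normal VEH libraries 1 to 3 it stood at 97559, 23837 and 78318 CPM, and in the normal HDM libraries at 21507, 50964 and 53358 CPM. It was the gene with the most counts of all in 5 of the 6 normal libraries and took 8.79% of all counts in normal VEH library 1. In the tumour VEH libraries its level was 385, 16272 and 5354 CPM, and in the tumour HDM libraries 597, 1043 and 2.27 CPM. Every tumour library lay below every normal library. Within the tumours the level still spanned 75 counts in tumour HDM library 3 to first place among all genes by counts in tumour VEH library 2. Per kilobase it was first among all genes in every normal library and in tumour VEH libraries 2 and 3.

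Ordered by median, Scgb1a1 was highest in the normal lung of VEH, then of HDM, and lower in tumours of VEH and lowest in tumours of HDM. Normal VEH and normal HDM overlapped, as did tumour VEH and tumour HDM, so neither pair of neighbours was separated. The step between normal HDM and tumour VEH was the only one without overlap. In bulk tissue, fewer cells of a type and less RNA per cell cannot be told apart.

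**Figure D1:**
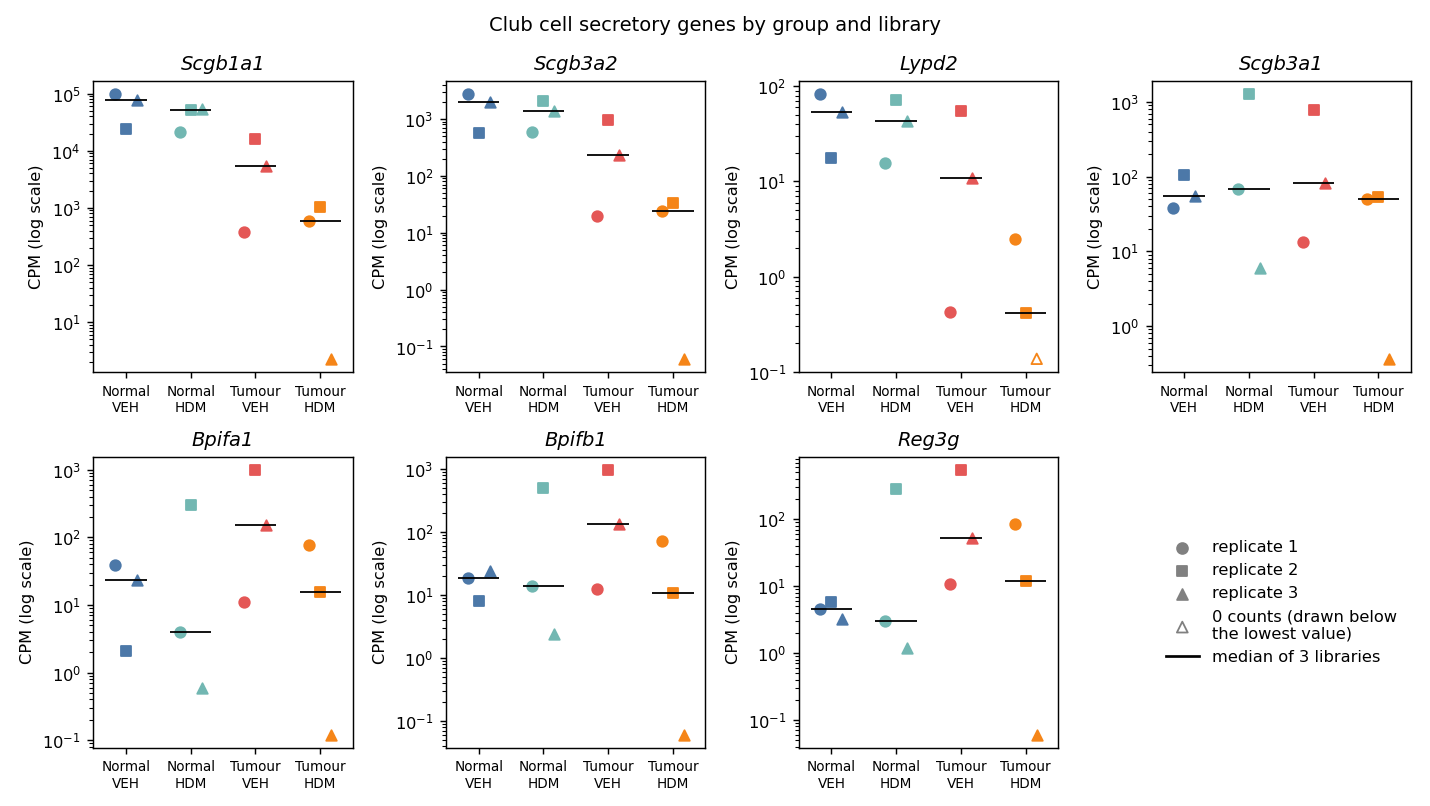
Levels of the 7 genes in CPM (log axis) in the 12 libraries; points are libraries, with shape giving the replicate number, bars are group medians of 3 libraries, and an open triangle stands for 0 counts drawn below the lowest value. Scgb1a1 runs from 97559 CPM in normal VEH library 1 to 2.27 CPM in tumour HDM library 3, and Bpifa1, Bpifb1 and Reg3g each have a single high library in normal HDM and in tumour VEH.

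Scgb3a2 (ENSMUSG00000038791), a secretoglobin that club cells also secrete, lies on chr18:43897354-43900474, plus strand. Its normal VEH levels were 2714, 557 and 1977 CPM, and its normal HDM levels 587, 2029 and 1398 CPM. The tumour VEH libraries gave 19.5, 938 and 228 CPM, and the tumour HDM libraries 24.3, 33.3 and 0.0607 CPM, the last from 2 counts. The VEH tissues overlapped only because tumour VEH library 2 exceeded normal VEH library 2, and the HDM tissues did not overlap. Per kilobase, Scgb3a2 came second to Scgb1a1 in all 6 normal libraries.

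Lypd2 (ENSMUSG00000022595), on chr15:74604096-74606216, minus strand, encodes a small protein of the Ly6/PLAUR domain family. It stood at 82.5, 17.7 and 53.8 CPM in normal VEH and at 15.8, 71.7 and 42.7 CPM in normal HDM. In tumour VEH it gave 0.425, 54.9 and 10.8 CPM, and in tumour HDM 2.46, 0.41 and 0 CPM. The count of 0 in tumour HDM library 3 allows a level of up to 0.0910 CPM, which is 3 counts and covers counting error only, or up to 0.182 CPM, which is 6 counts, if mates were counted apart. The VEH tissues overlapped and the HDM tissues did not. The normal libraries with high Lypd2 were those with high Scgb3a2, and per kilobase Lypd2 was the lowest of the 7 genes in all 6 tumour libraries.

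Scgb3a1 (ENSMUSG00000064057), on chr11:49549630-49555945, plus strand, encodes a secretoglobin found mainly in larger airways. Its normal VEH levels were 38.6, 105 and 55.4 CPM and its normal HDM levels 69.1, 1268 and 6.04 CPM. In tumour VEH it reached 13.5, 782 and 82.4 CPM, and in tumour HDM 50.8, 53.1 and 0.364 CPM. Tumour and normal groups overlapped under both treatments. Normal HDM library 2 alone held 82.2% of the summed CPM of the 6 normal libraries.

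Bpifa1 (ENSMUSG00000027483), on chr2:153984800-153991139, plus strand, encodes a secreted BPI fold protein that lowers surface tension and limits sodium uptake in the airway lining. It measured 39.7, 2.08 and 23.7 CPM in normal VEH and 3.93, 304 and 0.589 CPM in normal HDM. The tumour VEH levels were 10.96, 993 and 155 CPM, and the tumour HDM levels 77.3, 15.4 and 0.121 CPM. The highest tumour library exceeded the highest normal library, and the groups overlapped under both treatments.

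Bpifb1 (ENSMUSG00000027485), on chr2:154032738-154062289, plus strand, encodes a longer BPI fold protein of mucous cells and glands. In normal VEH it stood at 18.5, 7.87 and 24.1 CPM and in normal HDM at 13.6, 489 and 2.36 CPM. In tumour VEH it stood at 12.5, 959 and 131 CPM and in tumour HDM at 70.6, 10.7 and 0.0607 CPM. The libraries that were high for Bpifa1 were high for Bpifb1. The 2 genes lie 41.6 kb apart with a single annotated gene between them, Bpifa5, which had 0 counts in all 12 libraries. Per kilobase, the ratio of Bpifa1 to Bpifb1 ran from 0.585 to 5.03 in the normal libraries and from 2.05 to 4.68 in the tumour libraries.

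Reg3g (ENSMUSG00000030017), on chr6:78443246-78445859, minus strand, encodes the antibacterial lectin and had low, even levels in normal VEH, at 4.60, 5.85 and 3.20 CPM. In normal HDM it measured 3.03, 278 and 1.18 CPM. In tumour VEH it measured 10.9, 545 and 53.2 CPM, so all tumour VEH libraries lay above all normal VEH libraries. In tumour HDM it measured 83.8, 11.9 and 0.0607 CPM, and these overlapped normal HDM.

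Most close relatives of the 7 genes had too few counts to be tested, but some were well expressed. Of 14 other BPI fold family genes in the table, 7 had 0 counts in every library and 3 were tested, Bpifb5, Lbp and Pltp. Over the 12 libraries these 3 had 648, 23516 and 104790 counts. Of 6 other secretoglobins, 5 had 0 counts and only Scgb1c1 was tested, with 2455 counts over the 12 libraries. None of 6 other Reg family genes was tested, and 3 of them had 0 counts, so the Reg family signal lay almost wholly in Reg3g. Of 10 other Lypd genes, 3 had 0 counts and 3 were tested, Lypd1, Lypd6 and Lypd6b, with 1616, 468 and 1271 counts.

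Tumour was first compared with normal lung, averaged over both treatments. Scgb1a1, Scgb3a2 and Lypd2 fell in tumour, by 26.4-fold, 17.5-fold and 10.4-fold in the fitted means. In log2 terms the change of Scgb1a1 was -4.72 ± 1.20 (SE, 6 against 6 libraries), with an adjusted p of 0.00600 by edgeR's quasi-likelihood test. The change of Scgb3a2 was -4.13 ± 1.14 (adjusted p = 0.00930, edgeR), and that of Lypd2 was -3.38 ± 1.06 (adjusted p = 0.0171, edgeR). So 3 of the 7 genes were called lower, 0 were called higher and 4 were not called. Over all tested genes, 62.9% were called in this comparison, 34.8% lower and 28.1% higher, so the count of 3 in 7 is near the background.

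The other 4 genes gave changes of -0.77 for Scgb3a1, 1.21 for Bpifa1, 0.91 for Bpifb1 and 1.96 for Reg3g on the log2 scale, with adjusted p between 0.268 and 0.618 (edgeR). Their standard errors were 1.28 to 1.52, and the 95% interval of Reg3g ran from -1.31 to 5.22. Without normal HDM library 2, Reg3g was called higher, with a log2 change of 4.70 and an adjusted p of 0.0240 (edgeR), beside 58.4% of all genes called there, and Bpifa1 gave 3.96 with an adjusted p of 0.0549. Without tumour VEH library 2, Reg3g gave 0.62 and Bpifa1 gave 0.10 on the log2 scale. Without both libraries, a choice made after seeing the data, the 3 lower calls stood and Reg3g gave 3.37 (adjusted p = 0.0507, edgeR).

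Of the 7 genes, Scgb1a1 alone did not overlap between all 6 tumour and all 6 normal libraries. Over all tested genes, 19.9% were lower in every tumour library than in every normal library. Without tumour HDM library 3 the same 3 genes were called, with Scgb1a1 at -4.30, Scgb3a2 at -3.71 and Lypd2 at -2.94 on the log2 scale. Without the 4 libraries with conflicting prefixes, which left 2 per group, none of the 7 was called, with adjusted p of 0.0624 for Scgb1a1, 0.0796 for Scgb3a2 and 0.141 for Lypd2 (edgeR). Lypd2 also lost its call without tumour VEH library 3 or tumour HDM library 2 (adjusted p of 0.05003 and 0.0505, edgeR).

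**Figure D2:**
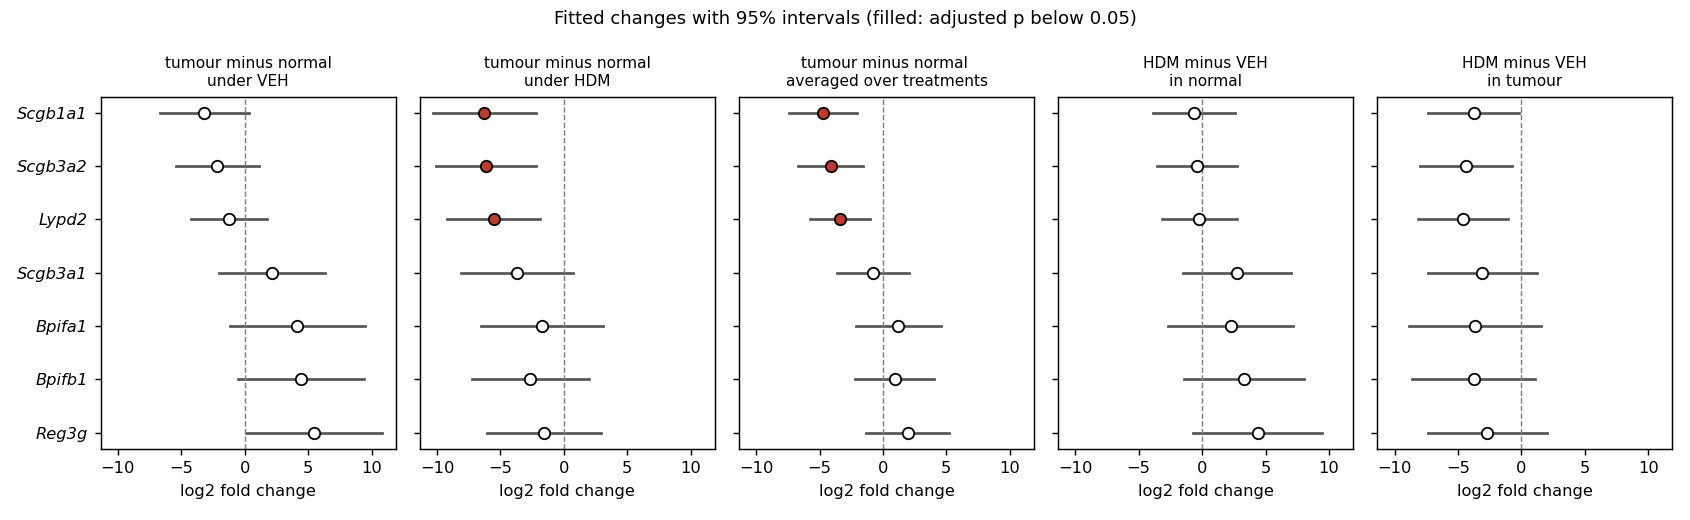
Fitted log2 fold changes (x axis) of the 7 genes in 5 comparisons, with 95% intervals as lines and filled points where the adjusted p was below 0.05. Scgb1a1, Scgb3a2 and Lypd2 are filled under HDM and in the averaged comparison, and no point is filled under VEH or between treatments.

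Under HDM, tumour HDM was compared with normal HDM, 3 libraries against 3. Scgb1a1 fell by 6.26 on the log2 scale (SE 1.83, adjusted p = 0.0156, edgeR), Scgb3a2 by 6.12 (SE 1.78, adjusted p = 0.0152) and Lypd2 by 5.55 (SE 1.67, adjusted p = 0.0178). These were the 3 genes called of the 7, all lower, beside 51.9% of all tested genes called, 28.9% lower and 23.0% higher. They were also the 3 whose HDM groups did not overlap, and 33.5% of all tested genes lay lower in that way. Scgb3a1, Bpifa1, Bpifb1 and Reg3g gave log2 changes of -3.69, -1.73, -2.63 and -1.56 with adjusted p of 0.146 to 0.544 (edgeR). Without normal HDM library 2 the last 3 turned in sign, to 3.78 for Bpifa1, 1.76 for Bpifb1 and 3.92 for Reg3g, and Scgb3a1 gave -0.11.

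The lower calls under HDM stood without tumour HDM library 3, at -5.52 for Scgb1a1, -5.38 for Scgb3a2 and -4.78 for Lypd2 on the log2 scale. Scgb1a1 lost its call without tumour HDM library 1 (adjusted p = 0.0533, edgeR) and Lypd2 without tumour HDM library 2 (adjusted p = 0.0679, edgeR). All 3 calls were lost without the 4 libraries with conflicting prefixes, with adjusted p of 0.104 to 0.144 (edgeR), and also with no filter on low counts or with the prefix as a block, with adjusted p of 0.0595 to 0.0859.

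Under VEH, tumour VEH was compared with normal VEH, and edgeR called none of the 7 genes, beside 38.9% of all tested genes. At an unadjusted p below 0.05 there was 1 gene, Reg3g, against 49.8% of all genes. The Reg3g change was 5.48 ± 2.43 on the log2 scale (adjusted p = 0.0957, edgeR), and the change of Scgb1a1 was -3.18 ± 1.58 (adjusted p = 0.130, edgeR). DESeq2 called 3 of the 7, beside 46.9% of the 22145 genes to which it gave an adjusted p: Scgb1a1 at -3.21, Bpifb1 at 4.43 and Reg3g at 5.46 on the log2 scale, with adjusted p of 0.0260, 0.0447 and 0.0141. With the VEH libraries alone in the fit, edgeR called Reg3g (adjusted p = 0.0323), beside 33.6% of the genes tested there.

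The VEH values of the set lay on both sides of 0, from -3.18 for Scgb1a1 to 5.48 for Reg3g. Bpifa1 gave 4.15 and Bpifb1 4.45, with adjusted p of 0.185 and 0.136 (edgeR). Scgb1a1 was lower in every tumour VEH library than in every normal VEH library, as were 28.5% of all tested genes, and Reg3g was higher in every one, as were 23.9%. Without tumour VEH library 2 the Reg3g change was 2.81 and that of Bpifa1 1.93, while Scgb1a1 gave -4.53, and Scgb3a1 turned from 2.14 to -0.47.

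The effect of HDM was compared next, within normal lung. None of the 7 genes was called by edgeR, at a background of 0% of all tested genes, and none had an unadjusted p below 0.05, against 5.54% of all genes. DESeq2 also called none of the 7, beside 0.172% of its genes. The smallest adjusted p was 0.888, for Reg3g. Scgb1a1 gave -0.67 (95% interval -3.90 to 2.57) and Scgb3a2 gave -0.39 on the log2 scale. The values of Scgb3a1, Bpifa1, Bpifb1 and Reg3g were 2.76, 2.24, 3.32 and 4.37, and without normal HDM library 2 they were -0.82, -3.27, -1.07 and -1.12. Normal HDM and normal VEH overlapped for all 7 genes, while 5.85% of all tested genes were lower and 4.47% higher without overlap.

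Within tumours, HDM libraries gave lower fitted values than VEH libraries for all 7 genes, from -2.67 for Reg3g to -4.57 for Lypd2 on the log2 scale, but edgeR called none, beside 0.0946% of all tested genes. The smallest adjusted p was 0.223, for Lypd2. At an unadjusted p below 0.05 there were 3 of the 7, Scgb1a1, Scgb3a2 and Lypd2, against 16.7% of all genes. DESeq2 called Scgb1a1, at -3.78 with an adjusted p of 0.0466, beside 6.02% of its genes. All 7 genes overlapped between the treatments, and 10.7% of all tested genes were lower in every tumour HDM library than in every tumour VEH library. Tumour VEH library 2 held the highest level of every one of the 7 genes among tumours, and without it Scgb1a1 gave -2.39 and Reg3g -0.01. The 7 values share their libraries, so they are not separate observations of one direction.

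The difference between the tumour changes under HDM and under VEH was tested as an interaction. edgeR called 0 of the 7 genes, beside 0% of all genes, and DESeq2 also called 0, beside 0.989% of its genes. The estimates ran from -3.08 for Scgb1a1 to -7.09 for Bpifb1, the smallest adjusted p was 0.525 (edgeR), and 2 genes, Bpifb1 and Reg3g, had an unadjusted p below 0.05, against 9.39% of all genes. So the calls under HDM and their absence under VEH were not shown to differ.

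The composition of the set changed between tissues, as read from the ratio of each gene to Scgb1a1 within a library, per kilobase and per 1000 of Scgb1a1. Bpifa1 stood at 0.00340 to 1.84 (median 0.0747) in normal libraries and at 4.54 to 39.9 (median 12.7) in tumour libraries. Bpifb1 went from 0.00581 to 1.26 (median 0.0419) in normal libraries to 1.35 to 15.6 (median 3.89) in tumour libraries. Reg3g went from 0.00497 to 1.23 (median 0.0212) to 2.24 to 31.6 (median 6.18). For these 3 genes every tumour library exceeded every normal library, and the highest normal value was always in normal HDM library 2. Since Scgb1a1 itself was lower in tumours, 51.6% of all tested genes had a ratio to it that was higher in every tumour library, so this count is not particular to them.

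Scgb3a2 kept closest to Scgb1a1. Its ratio was 12.6 to 21.5 in normal libraries and 14.4 to 31.2 in tumour libraries, and the ranges overlapped. The overlap rested on normal HDM library 2 and on tumour HDM library 3, where Scgb3a2 had 2 counts. Without both, a choice made after seeing the data, the ratio was 12.6 to 15.0 in normal and 17.3 to 31.2 in tumour libraries. Lypd2 had 0.482 to 0.986 in normal libraries and up to 2.89 in tumour libraries, with 0 in tumour HDM library 3. The ratio of Scgb3a1, which scales with the length used, overlapped as well, at 0.0901 to 19.8 in normal and 12.3 to 127 in tumour libraries. This overlap rested on normal HDM library 2 alone, and the next normal value was 3.50, in normal VEH library 2. The value of 127 was that of tumour HDM library 3, where Scgb3a1 had 12 counts. Without that library the highest Scgb3a1 ratio was 67.7, in tumour HDM library 1.

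**Figure D3:**
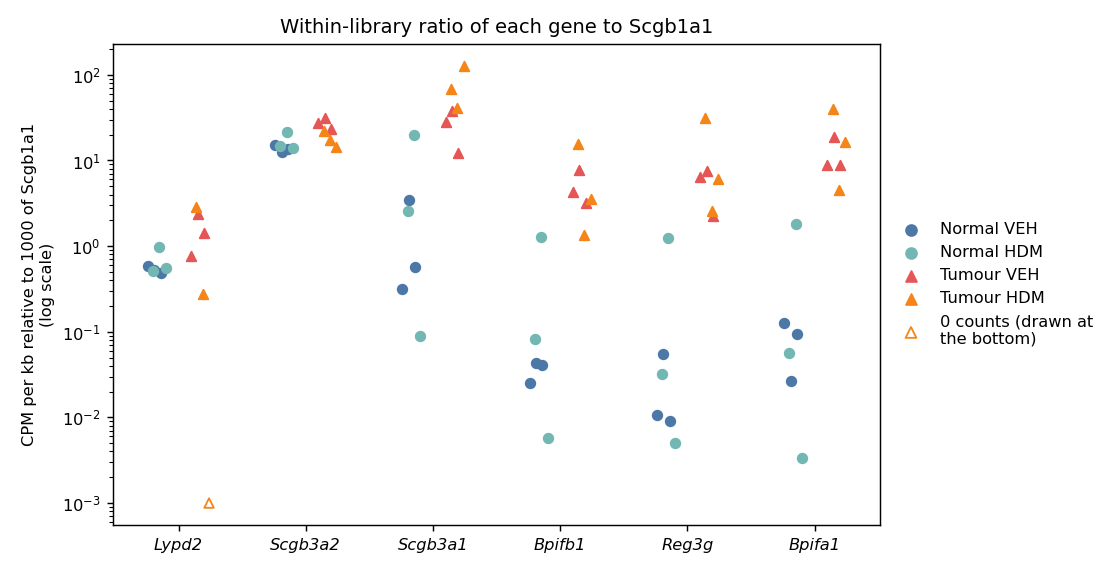
Ratio of each gene to 1000 of Scgb1a1 within each library, in CPM per kilobase on a log axis; circles are normal and triangles tumour libraries, and the open triangle at the bottom is 0 counts. The tumour points of Bpifa1, Bpifb1 and Reg3g lie above all their normal points, while those of Scgb3a2 overlap them at 12.6 to 31.2.

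The genes were also ordered by level per kilobase. Scgb1a1 was first in all 12 libraries. Scgb3a1 took the second place in 5 of 6 tumour libraries, with Scgb3a2 second in tumour VEH library 3. The deposited length of Scgb3a1 is 598 bases, against 1792 bases of exon in GENCODE M39, and with the M39 lengths Scgb3a1 was second in 1 tumour library and Scgb3a2 in 4, so this order rests on the length used. In tumour VEH library 2, Scgb3a1 had 1307 CPM per kilobase, Scgb3a2 1066, Bpifa1 643, Bpifb1 265, Reg3g 258 and Lypd2 80.9.

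Spread between libraries was large for 4 of the genes already in normal lung. The SD of log2 CPM over the 6 normal libraries was 0.89 for Scgb1a1, 0.97 for Scgb3a2 and 1.01 for Lypd2. It was 2.49 for Scgb3a1, 2.56 for Bpifb1, 2.73 for Reg3g and 3.21 for Bpifa1, beside a median of 0.43 over all tested genes. Each of the last 4 exceeded at least 99.2% of all genes. Over the 6 tumour libraries all 7 SDs lay between 3.44 and 4.42, with tumour HDM library 3 included.

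Relations between genes over libraries are given as descriptions, since the 6 libraries of a tissue share treatment groups and their levels are set against the same library totals. In normal lung, Scgb1a1 and Scgb3a2 had a Pearson r of 0.96 (Spearman rho 0.77, n = 6), and r was 0.75 without the 2 libraries farthest from the Scgb1a1 median. Scgb3a2 and Lypd2 had an r of 0.99 (rho 0.94), and 0.93 without 2 libraries. Scgb1a1 and Lypd2 had an r of 0.93 (rho 0.83), which became 0.48 without 2 libraries. Scgb1a1 and Reg3g had an r of 0.02 (rho -0.03), and Scgb1a1 and Scgb3a1 one of -0.17 (rho -0.60).

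Among the other 4 genes most relations in normal lung rested on normal HDM libraries 2 and 3. Bpifa1 and Bpifb1 kept theirs, with an r of 0.94 (rho 0.94) that was 0.88 without those 2 libraries. Scgb3a1 and Bpifa1 went from an r of 0.77 (rho 0.43) to -0.95, and Scgb3a1 and Bpifb1 from 0.92 (rho 0.49) to -0.83. Scgb3a1 and Reg3g went from 0.93 (rho 0.77) to 0.33. Those values rest on 4 libraries each once the 2 are left out. Bpifb1 and Reg3g went from 0.94 (rho 0.60) to -0.66, and Bpifa1 and Reg3g from 0.81 (rho 0.66) to -0.25.

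Relations of these 4 genes with mucous genes in normal lung rested on the same 2 libraries for most pairs. With Muc5b, r went from 0.97 (rho 0.49) to -0.96 for Reg3g, from 0.88 (rho 0.60) to -0.12 for Scgb3a1, from 0.80 (rho 0.83) to 0.13 for Bpifa1 and from 0.95 (rho 0.94) to 0.58 for Bpifb1. With Ltf, r went from 0.97 (rho 0.77) to 0.11 for Reg3g, from 0.88 (rho 0.54) to -0.40 for Scgb3a1, from 0.87 (rho 0.89) to 0.68 for Bpifa1 and from 0.96 (rho 0.94) to 0.57 for Bpifb1. With Cyp2f2, by contrast, r rose from 0.54 (rho 0.77) to 0.99 for Bpifa1 and from 0.31 (rho 0.66) to 0.82 for Bpifb1, while Reg3g gave 0.20 and -0.12 and Scgb3a1 -0.05 and -0.90. Over the few normal libraries left, Bpifa1 and Bpifb1 thus lay closer by r to this club cell gene than to Muc5b. By rho over all normal libraries they lay closer to Muc5b. Tumours also went the other way, without tumour HDM library 3 and tumour VEH library 2. There r was 0.99 with Muc5b and 0.70 with Cyp2f2 for Bpifa1, and 0.96 and 0.67 for Bpifb1.

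In tumours every pair of the 7 genes had an r of at least 0.89, and all 7 were lowest in tumour HDM library 3 and highest in tumour VEH library 2. Without those 2 libraries, r in tumours was 0.99 for Scgb1a1 with Scgb3a2, 0.99 for Bpifa1 with Bpifb1 and 0.38 for Scgb1a1 with Reg3g.

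**Figure D4:**
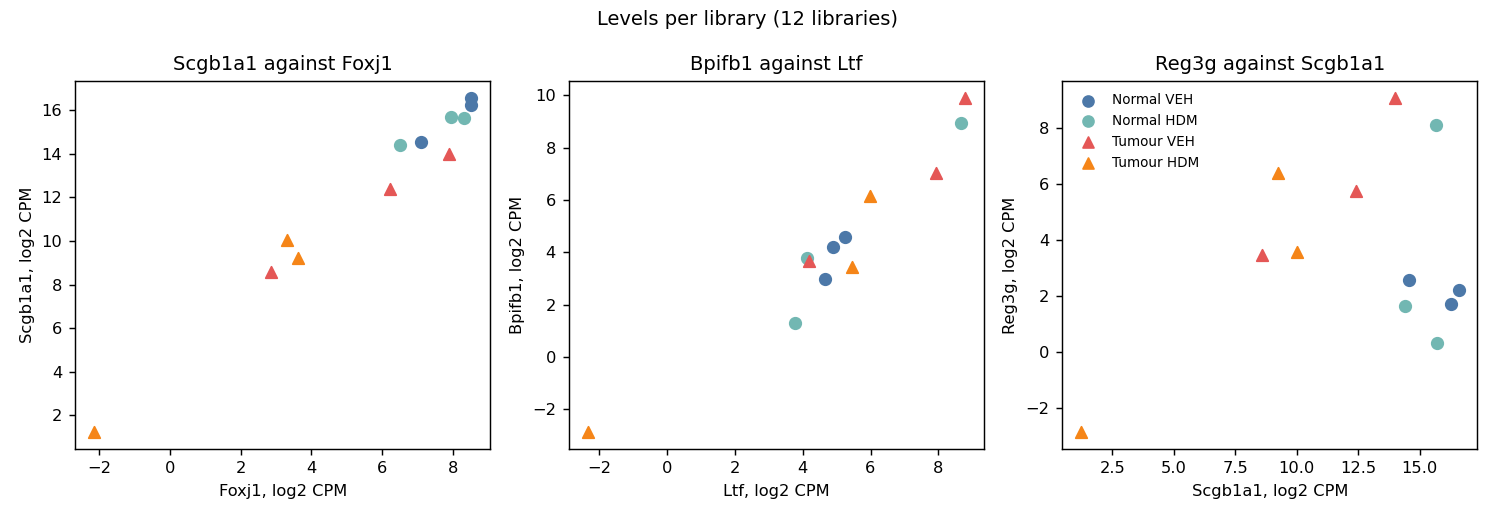
Levels in log2 CPM of pairs of genes over the 12 libraries, 1 point per library: Scgb1a1 against the ciliated cell gene Foxj1, Bpifb1 against Ltf, and Reg3g against Scgb1a1. Foxj1 and Scgb1a1 lie along 1 line across both tissues, and Reg3g shows no such line with Scgb1a1 in the normal libraries (r of 0.02).

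The genes most like each member over the 12 libraries were sought among 11366 well-expressed genes by the r of log2 CPM, a likeness that tissue differences and tumour HDM library 3 enter. For Scgb1a1 they were Ccdc153 (r = 0.997), Elapor1 (0.996) and Scnn1b (0.996), the last a subunit of the epithelial sodium channel. By deviations from group means, which remove the group differences, Scgb1a1 was most like Elapor1, Ces1d, Scnn1b, Ccdc153 and Elf5, with r of 0.991 to 0.997. For Scgb3a2 they were Ccdc153, Foxj1 and Gm19935, and for Lypd2 Lrrc23, 4930535L15Rik and Dnai2, a dynein subunit of cilia. For Scgb3a1 they were Muc5b (0.930), Ltf (0.922) and A2ml1 (0.915). Bpifa1, Bpifb1 and Reg3g each had Ltf first, at 0.898, 0.961 and 0.917, followed by Muc5b and Retnla in either order.

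Muc5b showed the same high libraries. It measured 33.6, 32.6 and 46.1 CPM in normal VEH and 44.4, 564 and 24.9 CPM in normal HDM. In tumour VEH it measured 7.82, 370 and 117 CPM, and in tumour HDM 52.1, 15.4 and 0 CPM. Ltf was at 409 CPM in normal HDM library 2 and at 441 CPM in tumour VEH library 2, against 13.7 to 37.6 CPM in the other normal libraries. Other tumour libraries were also above those normal libraries. In log2 CPM, Ltf was at 4.19, 8.78 and 7.93 in tumour VEH and at 5.98, 5.44 and -2.34 in tumour HDM. The normal libraries other than normal HDM library 2 reached at most 5.23.

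**Figure D5:**
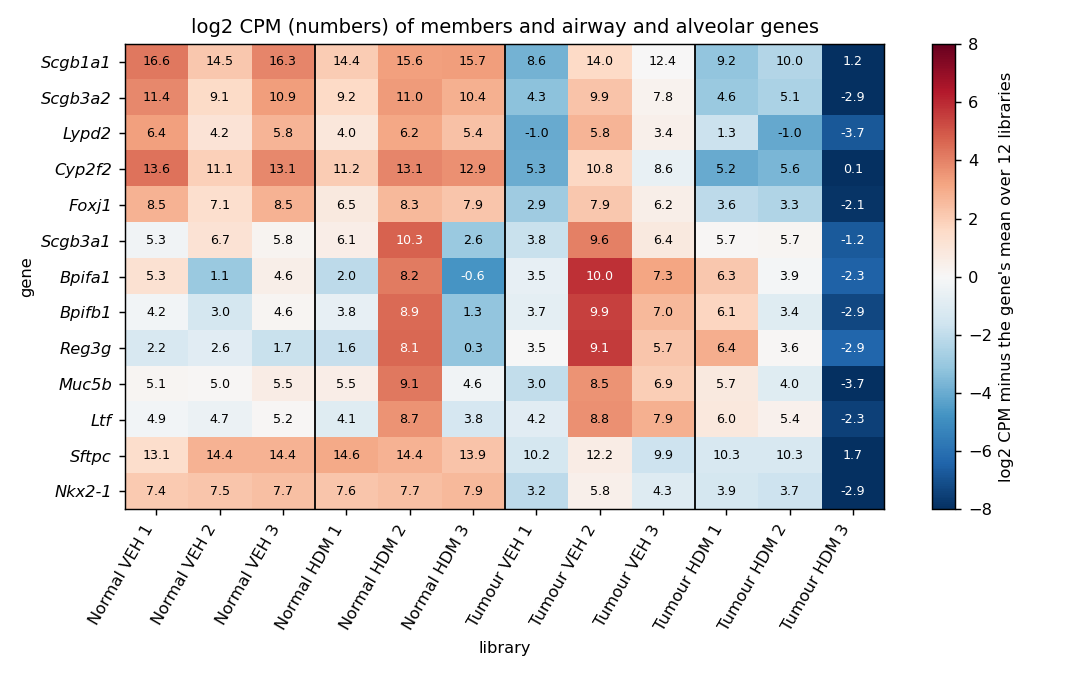
Log2 CPM (numbers in cells, computed with a prior count of 2) of the 7 genes and of club, ciliated, mucous and alveolar genes in the 12 libraries, coloured by the difference from each gene's mean. Scgb3a1, Bpifa1, Bpifb1, Reg3g, Muc5b and Ltf are high together in normal HDM library 2 and tumour VEH library 2, and all 13 genes are lowest in tumour HDM library 3.

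Other genes of the same cells were read from lists. Over all tested genes, 20.6% were called lower in tumour under VEH, 28.9% under HDM and 34.8% in the averaged comparison, and list counts are read against these shares. Of 20 other club cell genes, 7 were called lower in tumour under VEH, 19 under HDM and 19 in the averaged comparison, and none higher. Their median log2 changes were -3.004, -6.16 and -4.59, beside -0.11, -0.08 and -0.09 over all tested genes. Cyp2f2, a club cell cytochrome P450 that activates naphthalene, changed by -5.56 ± 1.11 (adjusted p = 0.00154, edgeR), and Cbr2, a carbonyl reductase, by -4.85 ± 0.74 (adjusted p = 3.0e-04). The exception in the averaged comparison was Krt15, a keratin that this list counts as a club cell gene and that basal cells also make, at -1.19 (adjusted p = 0.279, edgeR). Of the other secretoglobins, Scgb1c1 fell by 5.72 (adjusted p = 5.92e-04, edgeR).

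Ciliated cell genes, markers of the other main cell type of the bronchioles, were read in the same way. Of 12, 1 was called lower under VEH and all 12 under HDM and in the averaged comparison, with medians of -1.84, -4.90 and -3.37. Their summed level was 586 to 1977 CPM in normal and 22.7 to 928 CPM in tumour libraries. Foxj1, the master regulator of motile cilia, gave -3.17 ± 0.92 in the averaged comparison (adjusted p = 0.0120, edgeR). All 10 alveolar type 2 genes and all 8 alveolar type 1 genes were also called lower under HDM and in the averaged comparison. Nkx2-1, the lung lineage factor known to drive secretoglobin genes, gave -3.65 ± 0.79 (adjusted p = 0.00251, edgeR), and Foxa1 and Foxa2, forkhead factors of airway epithelium, gave -3.48 and -3.25. The part of these cell types in the results above was not tested.

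Genes of tissues around the airways were lower in tumour too. Of 6 smooth muscle genes, 3 were called lower under VEH and all 6 under HDM and in the averaged comparison, and their summed level was 107 to 1857 CPM in normal and 20.2 to 110 CPM in tumour libraries. Of 6 tested cardiac muscle genes, 2 were called lower under VEH and all 6 under HDM and in the averaged comparison, with sums of 18.0 to 449 CPM in normal and 1.40 to 15.6 CPM in tumour libraries. The share of counts from mitochondrial genes was 1.96% to 5.38% in normal and 0.342% to 1.79% in tumour libraries. Every normal library thus lay above every tumour library, as for Scgb1a1, with normal VEH library 1 highest and tumour HDM library 3 lowest in both. The part of these differences in the fall of Scgb1a1, Scgb3a2 and Lypd2 was not tested.

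Goblet cell genes had the same high libraries as Scgb3a1, Bpifa1, Bpifb1 and Reg3g. Of 12, none was called under VEH, 3 were called lower under HDM and 2 in the averaged comparison, with medians of 1.72, -3.70 and -0.86. These counts are below the shares called lower over all genes. Their summed level was highest in normal HDM library 2, at 2217 CPM, and in tumour VEH library 2, at 1194 CPM, and lowest in tumour HDM library 3, at 0.607 CPM with 9 of 12 genes at 0. The other normal libraries lay between 173 and 453 CPM. Tumour VEH libraries 1 and 3 were at 39.8 and 465 CPM, and tumour HDM libraries 1 and 2 at 157 and 78.3 CPM. Their part in the levels of Scgb3a1, Bpifa1, Bpifb1 and Reg3g was not tested. Basal cell genes, a list without Krt15, summed to 0.607 to 5.13 CPM in all libraries, so the markers on that list were near 0.

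Genes linked to IL-17 and IL-22, cytokines that induce Reg3g in epithelia, had summed levels of 3741 CPM in normal VEH library 2, 1942 CPM in normal HDM library 1 and 1460 CPM in normal HDM library 2, against 366 to 394 CPM in the other normal libraries. Reg3g was high in the last of these 3 libraries. In tumours the sums lay between 363 and 666 CPM. Of 13 tested, 3 were called lower under VEH, 2 under HDM and 5 in the averaged comparison, with none higher, which is near or below the shares over all genes. Lcn2, an iron-sequestering product of the same pathway, stood at 510 CPM in normal VEH library 2, where Reg3g was at 5.85 CPM, and at 947 CPM in normal HDM library 2, where Reg3g was at 278 CPM. Saa3, a serum amyloid, was highest at 2048 CPM in normal VEH library 2, a large part of the sum of 3741 CPM there. The part of these cytokines in the levels of Reg3g was not tested. Of 13 type 2 response genes tested, none was called under VEH, 3 were called lower under HDM and 4 in the averaged comparison, likewise near or below those shares. No gene of these lists was called between HDM and VEH in normal lung or in tumour. The type 2 genes summed to 7979 CPM in normal VEH library 2, and to 8304 and 6309 CPM in normal HDM libraries 1 and 2. They summed to 398 CPM in normal HDM library 3, and to 469 and 692 CPM in normal VEH libraries 1 and 3. These sums thus did not follow the treatment labels, so the absence of calls is not evidence of no response to HDM. The cause was not tested.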

How the data were processed

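RNA was measured by sequencing in 12 libraries, 3 per group. The authors deposited raw counts per Ensembl gene with gene lengths, per the file headers. Trim Galore, STAR, featureCounts and Subread and the genome build mm39 are named in the submitters' processing notes. Their versions, the annotation and the strand setting are not given in the sources used here. Libraries were stranded and read from both ends, and all carry the same batch, per the labels' protocols and tags. Symbols and GRCm39 coordinates came from GENCODE M39, which held 78168 of the 78298 identifiers.

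The counts were fitted with edgeR 4.0.16 (limma 3.58.1, R 4.3.3): genes kept by filterByExpr (minimum count 10), TMM scaling, 1 coefficient per group over all 12 libraries, robust quasi-likelihood F-tests, two-sided, and Benjamini-Hochberg adjustment over 22190 genes. Genes were called at an adjusted p below 0.05. Intervals are 95%. The fit was checked on simulated data. Alternatives were another scaling, other filters, DESeq2 1.42.0, the compared groups alone, a replicate block, a prefix block and libraries left out. The text names the 7 members, genes of the lists, and the 3 genes most like each member (5 by deviations for Scgb1a1). The members and lists were chosen with earlier results of these data known. Comparisons within a tissue or treatment share libraries with each other.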

Additional observations from a re-analysis of the deposited data

How the results depend on the processing

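Of the counts of called genes under all alternatives, 97 were unchanged or within 1.5 times the main count, and 9 moved. In 4 of the comparisons the main count was 0, and every count that stayed 0 there is among the 97. The tally is thus no measure of how firm the calls were. Under VEH the count of 0 became 1 with the compared groups alone and 3 with DESeq2. Under HDM the count of 3 became 0 with no filter on low counts, 1 with at least 10 counts in every library (which left 2 members to test), 0 with the prefix block and 0 without the 4 libraries with conflicting prefixes. In the averaged comparison the count of 3 became 1 with at least 10 counts in every library and 0 without those 4 libraries. For HDM against VEH in tumour the count of 0 became 1 with DESeq2. Except where fewer genes or libraries entered, the cause was not tested. Leaving out 1 library at a time gave 2 to 3 calls under HDM, 2 to 4 in the averaged comparison and 0 in the other 4 comparisons.

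With the replicate number as a block, the counts of called members were 0 under VEH, 3 under HDM, 3 averaged and 0 in the others, as without it, and 2 values changed sign: Reg3g under HDM (0.38) and Bpifa1 between treatments in normal lung (-0.32). Replicate numbers showed no clear pairing of the samples. Over 18 same-number pairs the correlation of deviations ran from -0.36 to 0.30, and 5 of the 12 libraries had their closest partner under their own number. Over the 6 pairs with the same prefix it ran from -0.22 to 0.18. The deviations are from group means, so a wrong treatment label would enter them, and neither pairing is excluded.

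The other values that changed sign did so when libraries were left out, 1 at a time or normal HDM library 2 with tumour VEH library 2, or with the prefix block. Their ranges over the left-out libraries, in log2 units, were -0.47 to 2.79 for Scgb3a1 under VEH. Under HDM they were -3.57 to 3.78 for Bpifa1, -4.80 to 1.77 for Bpifb1 and -3.82 to 3.92 for Reg3g, in each case above 0 only without normal HDM library 2. In the averaged comparison they were -2.08 to 1.01 for Scgb3a1 and -0.27 to 3.11 for Bpifb1. Between treatments in normal lung they were -0.82 to 3.28 for Scgb3a1, -3.27 to 3.004 for Bpifa1, -1.07 to 3.87 for Bpifb1, -1.12 to 4.94 for Reg3g, -0.82 to 0.080 for Scgb3a2 and -0.81 to 0.28 for Lypd2. With the prefix block Scgb1a1 and Scgb3a2 gave 1.54 and 1.77 there. For the interaction they were -6.34 to 0.35 for Scgb3a1, -7.82 to 1.85 for Bpifa1 and -9.38 to 1.11 for Reg3g. Depth limits Lypd2, Scgb3a2, Bpifb1 and Reg3g in tumour HDM library 3, where each had at most 2 counts.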

Other observations

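The 7 genes together took 2.13% to 9.06% of all counts in the normal libraries. In the tumour libraries they took 0.000321% to 2.07%, with the highest share in tumour VEH library 2.

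Cyp2f2 and Scgb3a2 were ordered alike over the 6 normal libraries, with a Spearman rho of 1.00 and a Pearson r of 0.99. Sftpc ran the other way against Scgb1a1 in normal lung, with an r of -0.71 (rho -0.94, and -0.64 without the 2 libraries farthest from the Scgb1a1 median), a relation between 2 levels set against the same library totals. Sox9, an epithelial progenitor and cartilage factor, was the single gene of 13 lung epithelial transcription factors called higher in tumour in the averaged comparison, at 4.43 ± 0.66 on the log2 scale (adjusted p = 2.49e-04, edgeR), while 11 were called lower. Clca1, a goblet cell protein of type 2 responses, stood at 34.4 CPM in normal HDM library 2 and at 84.8 CPM in tumour VEH library 2. Bpifb5, the next BPI fold gene after Bpifb1 on the chromosome, was called lower in tumour in the averaged comparison (-2.50 ± 0.71, adjusted p = 0.00986, edgeR), as were Lbp (-2.94) and Pltp (-2.31).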
